A study of Mus musculus with 6 samples.

Results

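RNA polymerases I, II and III copy nuclear DNA into RNA, and their subunit genes, with the genes of the dedicated initiation factors of polymerases I and III, were examined in LLC cells treated with an inhibitor of the m6A writer METTL3. The members are the gene symbols of the expression table that begin with Polr1, Polr2 or Polr3 followed by letters only, together with Taf1a, Taf1b, Taf1c, Taf1d, Rrn3, Ubtf, Brf1, Brf2 and Bdp1. They number 37 of the 55367 gene symbols in the table. All 37 passed the filter on low values and were tested, and their mean levels in DMSO ran from 99.3 normalised reads for Taf1b to 5942 for Polr2a.

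LLC (Lewis lung carcinoma) is a mouse tumour cell line, given in the labels as wild type and grown here in medium with serum. One group received 5 µM STM2457, a small molecule that blocks the catalytic activity of METTL3, for 46 h, and the other received the solvent DMSO for 46 h, with 3 libraries in each. Messenger RNA was sequenced, and the libraries held 17671714 to 17917213 reads in genes as recovered from the deposited log2 values. Levels are given as normalised reads, the recovered reads over the size factor of each library. Separate cultures are not stated, so the p-values cover only the spread of these samples, which may be technical.

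RNA polymerase I makes the large ribosomal RNA precursor in the nucleolus, polymerase II makes messenger RNA and many small RNAs, and polymerase III makes transfer RNA, 5S ribosomal RNA and other short transcripts. Each enzyme has its own pair of large catalytic subunits and a set of specific smaller ones. Polymerases I and III share the assembly subunits encoded by Polr1c and Polr1d, and all 3 enzymes share the small subunits encoded by Polr2e, Polr2f, Polr2h, Polr2k and Polr2l. The demand for polymerase I and III products is known to follow cell growth.

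Among the 37 members, STM2457 cells had 18 genes higher and 2 lower by limma on the deposited log2 values (adjusted p under 0.05), and 17 were not called. Among all 12618 tested genes, 56.3% were called, 30.7% as higher and 25.7% as lower, so the members' 48.6% higher and 5.41% lower stand above and below those shares. The 3 libraries of the groups did not overlap in 23 members (62.2%), near the 61.8% of all tested genes. The calls were unevenly spread over the enzymes. Of the polymerase I members 6 of 9 were higher and 0 lower, of the polymerase III members 7 of 13 higher and 1 lower, of the shared subunits 3 of 7 higher and 1 lower, and of the polymerase II members 2 of 8 higher and 0 lower. The median fold, STM2457 over DMSO in the recovered reads, was 1.20 for polymerase I, 1.13 for polymerase III, 1.05 for the shared and 1.05 for the polymerase II members, against 1.01 over all tested genes. The polymerase I counts leave out 3 subunits listed under older symbols, of which 1 was higher and 2 were not called. No test of the difference between these small lists was made. With upper-quartile centring of the libraries the split of all tested genes was 22.3% higher and 38.2% lower, and the members then counted 14 higher and 4 lower. The 6 polymerase I members that were higher stayed higher with that centring, whereas 0 of 8 polymerase II members were then higher and 1 was lower.

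**Figure D1:**
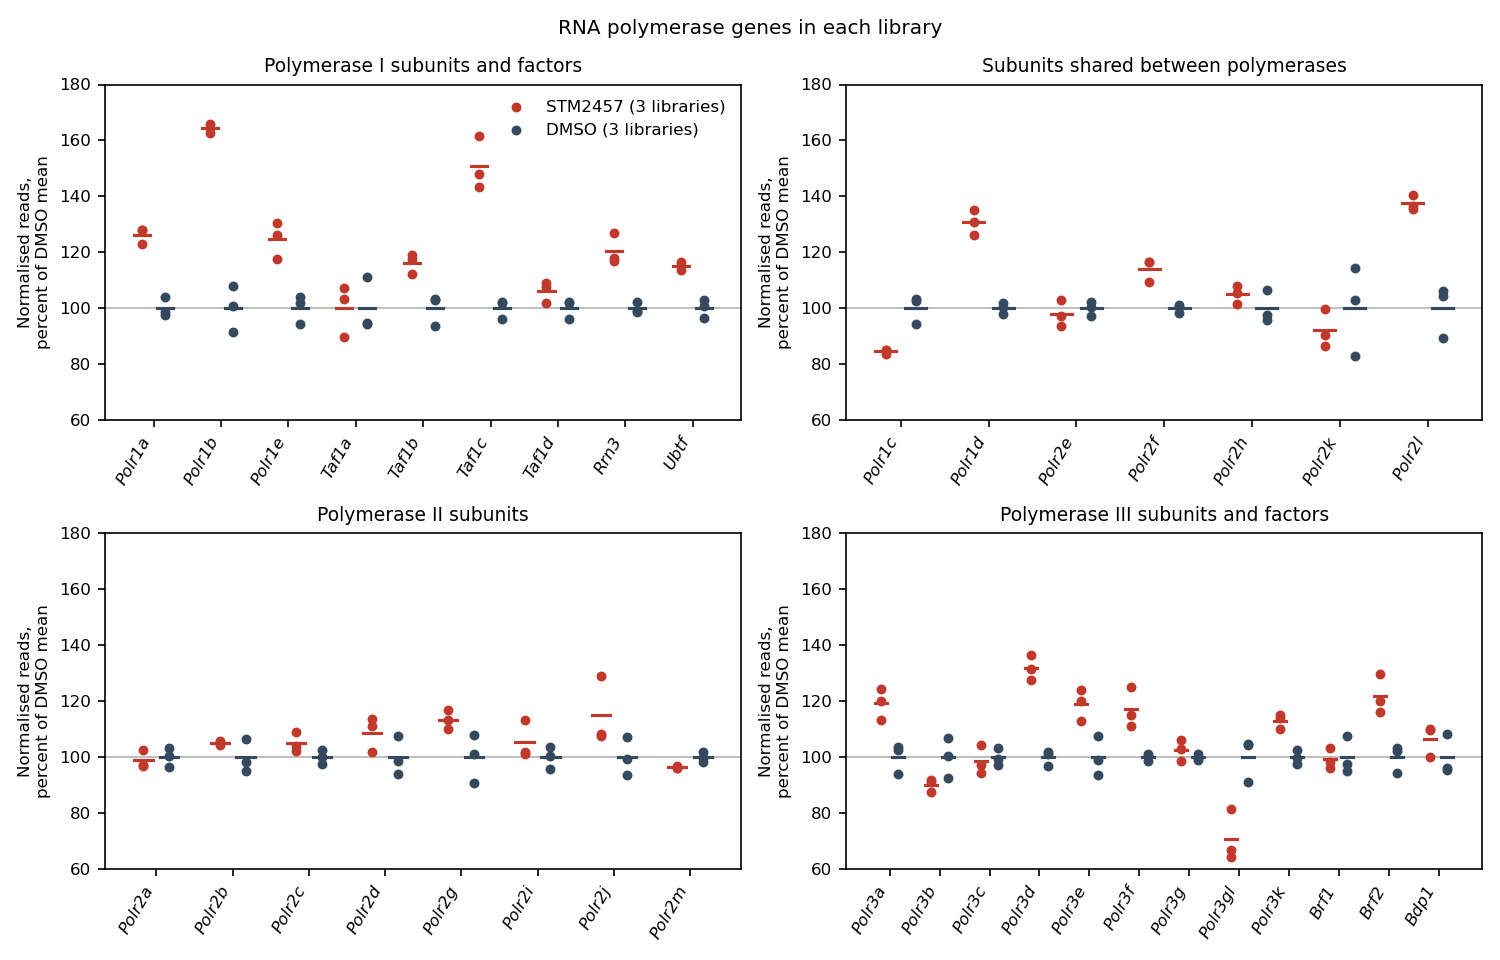
Normalised reads of 36 members in each library as a percentage of the DMSO mean of that gene (vertical axis), with genes on the horizontal axis in 4 panels by polymerase; points are libraries and short bars are group means (3 STM2457 libraries at the left, 3 DMSO libraries at the right). Polr1b and Taf1c stand highest and Polr3gl lowest, and the points of Polr2a lie around 100 in both groups.

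The promoters of 4 members show what sequence lies at genes that moved in different ways, and the E-box CACGTG, the site bound by MYC and related factors, is in capitals. Polr1b had the largest rise, Rrn3 and Polr3e are the called-higher members with an E-box, and Polr3gl is the member that fell furthest. Each window is 300 bases of RefSeq sequence on GRCm38.p6, from 250 bases before the transcript start to 50 after it, written 5′ to 3′ on the strand of the gene. They are chr2:129100746-129101045 (plus strand), chr16:13780449-13780748 (plus), chr7:120917528-120917827 (plus) and chr3:96594132-96594431 (minus) in that order.
Polr1b: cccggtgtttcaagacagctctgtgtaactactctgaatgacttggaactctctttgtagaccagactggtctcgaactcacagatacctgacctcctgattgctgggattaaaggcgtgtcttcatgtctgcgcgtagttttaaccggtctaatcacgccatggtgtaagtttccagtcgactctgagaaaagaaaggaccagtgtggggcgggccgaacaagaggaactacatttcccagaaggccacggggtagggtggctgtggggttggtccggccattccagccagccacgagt
Rrn3: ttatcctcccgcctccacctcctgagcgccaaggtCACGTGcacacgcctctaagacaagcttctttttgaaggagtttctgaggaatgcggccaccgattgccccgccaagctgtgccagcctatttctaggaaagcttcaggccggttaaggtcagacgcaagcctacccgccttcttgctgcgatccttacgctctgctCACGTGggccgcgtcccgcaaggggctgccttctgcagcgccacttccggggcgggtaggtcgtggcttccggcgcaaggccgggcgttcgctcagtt
Polr3e: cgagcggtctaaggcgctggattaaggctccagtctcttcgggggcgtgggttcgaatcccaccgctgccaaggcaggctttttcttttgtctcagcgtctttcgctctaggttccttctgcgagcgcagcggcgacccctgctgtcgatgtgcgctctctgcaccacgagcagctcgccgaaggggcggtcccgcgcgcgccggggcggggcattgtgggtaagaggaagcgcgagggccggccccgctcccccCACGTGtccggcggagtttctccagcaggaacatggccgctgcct
Polr3gl: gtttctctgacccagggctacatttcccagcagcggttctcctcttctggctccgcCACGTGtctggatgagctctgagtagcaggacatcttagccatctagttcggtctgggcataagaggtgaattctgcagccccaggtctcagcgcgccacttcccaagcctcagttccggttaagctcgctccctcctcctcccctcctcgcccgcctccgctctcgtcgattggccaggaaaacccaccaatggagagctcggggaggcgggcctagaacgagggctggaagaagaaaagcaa
The Polr1b window holds no E-box, the Rrn3 window holds 2, and those of Polr3e and Polr3gl hold 1 each, so a match was present at genes that rose and at a gene that fell. RefSeq places a leucine transfer RNA gene, n-TLaag4, on chromosome 7 from 120917517 to 120917598, and its last 71 bases are the first 71 of the Polr3e window. A transfer RNA gene, itself a polymerase III template, thus lies directly upstream of a gene for a polymerase III subunit. Promoter windows were found for 29 of the 37 members, 38 windows in all. CACGTG, which reads the same on both strands, occurred at 5 of these 29 genes (17.2%), also at Polr2h and Polr3c, which were not called, against 12% of the 9384 tested genes with a window and 8.09% of all 27025 genes with one. The ETS motif CCGGAAGT (ACTTCCGG on the other strand) occurred at 8 of the 29 (27.6%), against 9.84% of the tested genes and 4.31% of all. Its holders are Rrn3, Taf1c, Polr1e, Polr2f and Polr2j, which were higher, Polr1c, which was lower, and Taf1a and Polr3b, which were not called. Of 6 further motifs searched on both strands, the SP1 box GGGCGG occurred at 65.5% of the 29 genes against 70.1% of tested genes, CCAAT at 34.5% against 43.8%, TATAAA at 6.9% against 8.41% and the CRE TGACGTCA at 3.45% against 3.77%. The NRF1 motif occurred at 0 of the 29 against 2.46% of tested genes, and YY1 (AAGATGGC) at 0 against 5.63%. Matches of different motifs can share bases, as ACTTCCGG and GGGCGG do in the Rrn3 window. The window of Cd3eap, a polymerase I subunit gene that is not a member and was called higher, holds 2 E-boxes. Myc itself was lower after STM2457, at 0.674 of DMSO (limma adjusted p = 0.0032). Whether MYC acts at these genes was not tested. A match is a description of the letters only.

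The 3 polymerase I-specific subunits among the members were all higher, and of the 6 measured under either set of symbols 4 were higher. Polr1b, which encodes the second largest, catalytic subunit, measured 2097, 2079 and 2057 normalised reads in STM2457 replicates 1 to 3, against 1272, 1366 and 1155 in DMSO replicates 1 to 3. Every STM2457 library stood far above every DMSO library. The fold was 1.65 (95% interval 1.54 to 1.76, limma adjusted p = 1.6e-11), the largest rise among the 37 members. Polr1a, the gene of the largest subunit, measured 3873, 3720 and 3874 normalised reads after STM2457 and 3144, 2983 and 2959 in DMSO. The groups did not overlap, at 1.26-fold (1.20 to 1.33, adjusted p = 7.0e-08 by limma). Polr1e encodes a subunit that, with its partner, anchors the enzyme to initiation factors, and it measured 719.1, 694.7 and 648 normalised reads after STM2457 against 571.9, 519.2 and 561.5 in DMSO, a 1.25-fold rise (limma adjusted p = 6.2e-05). Summed over the 3 genes, the level was 6587 ± 97.8 normalised reads after STM2457 and 4844 ± 157 in DMSO (SD, n = 3 each), or 136% of DMSO. With the 3 further subunits listed under older symbols the sum was 9719 ± 133 normalised reads after STM2457 and 7621 ± 211 in DMSO (SD, n = 3 each), or 127.5% of DMSO.

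The table lists 3 further polymerase I subunits under older symbols, which the choice by symbol left out. Cd3eap, now Polr1g and the partner of Polr1e, rose to 869 ± 13.4 normalised reads after STM2457, against 594 ± 36.3 in DMSO (SD, n = 3 each; 1.46-fold, limma adjusted p = 6.9e-09). Twistnb, now Polr1f, a stalk subunit, measured 1532 ± 56.5 and 1434 ± 74.1 in STM2457 and DMSO (limma adjusted p = 0.08), and was called higher without DMSO replicate 2 (0.011). Znrd1, now Polr1h, which takes part in RNA cleavage, measured 731 ± 18.4 after STM2457 and 748 ± 39.6 in DMSO (adjusted p = 0.61 by limma). Of the 6 subunits, Twistnb and Znrd1 thus did not pass the test.

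Of the 6 polymerase I factor genes, 3 were higher and 0 lower. Taf1c, a subunit of the promoter-selectivity factor SL1, measured 353.6, 386.6 and 342.8 normalised reads after STM2457 and 244.4, 243.2 and 230 in DMSO. This was 1.51-fold (95% interval 1.35 to 1.68, limma adjusted p = 4.3e-07), with no overlap. Rrn3, which carries the enzyme to the SL1-bound promoter in its growth-regulated form, measured 2193, 2040 and 2019 normalised reads after STM2457 against 1709, 1713 and 1768 in DMSO (1.20-fold, limma adjusted p = 8.3e-06). Ubtf encodes UBF, the architectural protein of active ribosomal DNA, and measured 3923, 3872 and 3831 normalised reads after STM2457 and 3461, 3393 and 3248 in DMSO (1.15-fold, limma adjusted p = 6.4e-05). In both genes the lowest STM2457 library was above the highest DMSO library. The other SL1 genes among the members were not called: Taf1a was at 1.00-fold (0.888 to 1.13, adjusted p = 0.99), Taf1b at 1.16-fold (0.988 to 1.37, adjusted p = 0.099) and Taf1d at 1.06-fold (1.00 to 1.12, adjusted p = 0.1), all by limma. Taf1b has the fewest reads of all members, 118.2, 111.3 and 116.9 after STM2457 against 93.14, 102.3 and 102.5 in DMSO, and was called higher without the mean-variance trend and robust priors (0.035). The subunits of SL1 thus gave different values within the same libraries.

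The subunits shared between enzymes went different ways. Polr1d and Polr1c encode the pair of subunits on which polymerases I and III are assembled. Polr1d measured 4092, 4228 and 3946 normalised reads after STM2457 against 3138, 3059 and 3189 in DMSO, a rise of 1.31-fold (1.24 to 1.38, limma adjusted p = 7.2e-09). Its partner Polr1c measured 1482, 1458 and 1483 after STM2457 against 1640, 1783 and 1799 in DMSO and fell to 0.848 of DMSO (0.799 to 0.900, limma adjusted p = 6.0e-05). Neither gene overlapped between the groups, and the intervals of the 2 folds do not meet.

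Of the 5 subunits that all 3 enzymes use, 2 were higher. Polr2l, whose product binds the assembly platform, measured 1770, 1758 and 1821 normalised reads after STM2457 and 1378, 1160 and 1354 in DMSO (1.38-fold, 1.28 to 1.48, limma adjusted p = 1.5e-07). Polr2f, whose product helps to hold the clamp and assembly together, measured 2810, 2807 and 2635 after STM2457 against 2440, 2366 and 2422 in DMSO (1.14-fold, limma adjusted p = 2.3e-04). Both were higher in every STM2457 library than in any DMSO library. Polr2h was at 1.05-fold (limma adjusted p = 0.3), Polr2e at 0.979 (0.58) and Polr2k at 0.929 (0.35), and their groups overlapped. Polr2k was called lower without DMSO replicate 2 (limma adjusted p = 0.023), and it measured 269.2, 233.5 and 243.8 normalised reads after STM2457 against 278.4, 223.4 and 308.4 in DMSO.

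The catalytic subunits of polymerase II were not called. Polr2a, whose product carries the carboxy-terminal repeat domain that coordinates RNA processing, measured 5776, 6102 and 5747 normalised reads after STM2457 and 6126, 5973 and 5725 in DMSO. The groups overlapped fully, at a fold of 0.989 (95% interval 0.939 to 1.04, limma adjusted p = 0.74). Polr2b, the second catalytic subunit, measured 2426, 2459 and 2450 after STM2457 against 2478, 2281 and 2212 in DMSO (1.05-fold, 0.995 to 1.12, limma adjusted p = 0.14). Its STM2457 libraries lay within the DMSO range, and it was called higher without DMSO replicate 1 (0.012). Polr2a was called lower by limma-voom on the recovered reads with upper-quartile scaling (0.049).

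Among the smaller polymerase II subunits, Polr2g and Polr2j were called higher. Polr2g, part of the stalk that meets the emerging RNA, measured 1187, 1260 and 1219 normalised reads after STM2457 and 978.5, 1089 and 1164 in DMSO (1.14-fold, limma adjusted p = 0.0056), and lost its call with upper-quartile centring (0.074). Polr2j, part of the assembly pair of polymerase II, measured 1524, 1271 and 1280 after STM2457 and 1172, 1106 and 1266 in DMSO (1.15-fold, limma adjusted p = 0.028). The groups of Polr2j are separated by only a few reads, and it was not called with upper-quartile centring (0.11) or without STM2457 replicate 1 (0.11), DMSO replicate 1 (0.099) or DMSO replicate 2 (0.077). The stalk partner Polr2d (1.09-fold, limma adjusted p = 0.094), the assembly partner Polr2c (1.05-fold, 0.15) and the cleavage subunit Polr2i (1.05-fold, 0.36) were not called, though Polr2d was called higher without DMSO replicate 1 (0.021) or STM2457 replicate 3 (0.045). Polr2m encodes a protein that associates with polymerase II and keeps it dependent on Mediator. It measured 4061, 4042 and 4036 normalised reads after STM2457 against 4274, 4132 and 4194 in DMSO (0.963, limma adjusted p = 0.21), with no overlap, and was called lower with upper-quartile centring (0.0044).

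**Figure D2:**
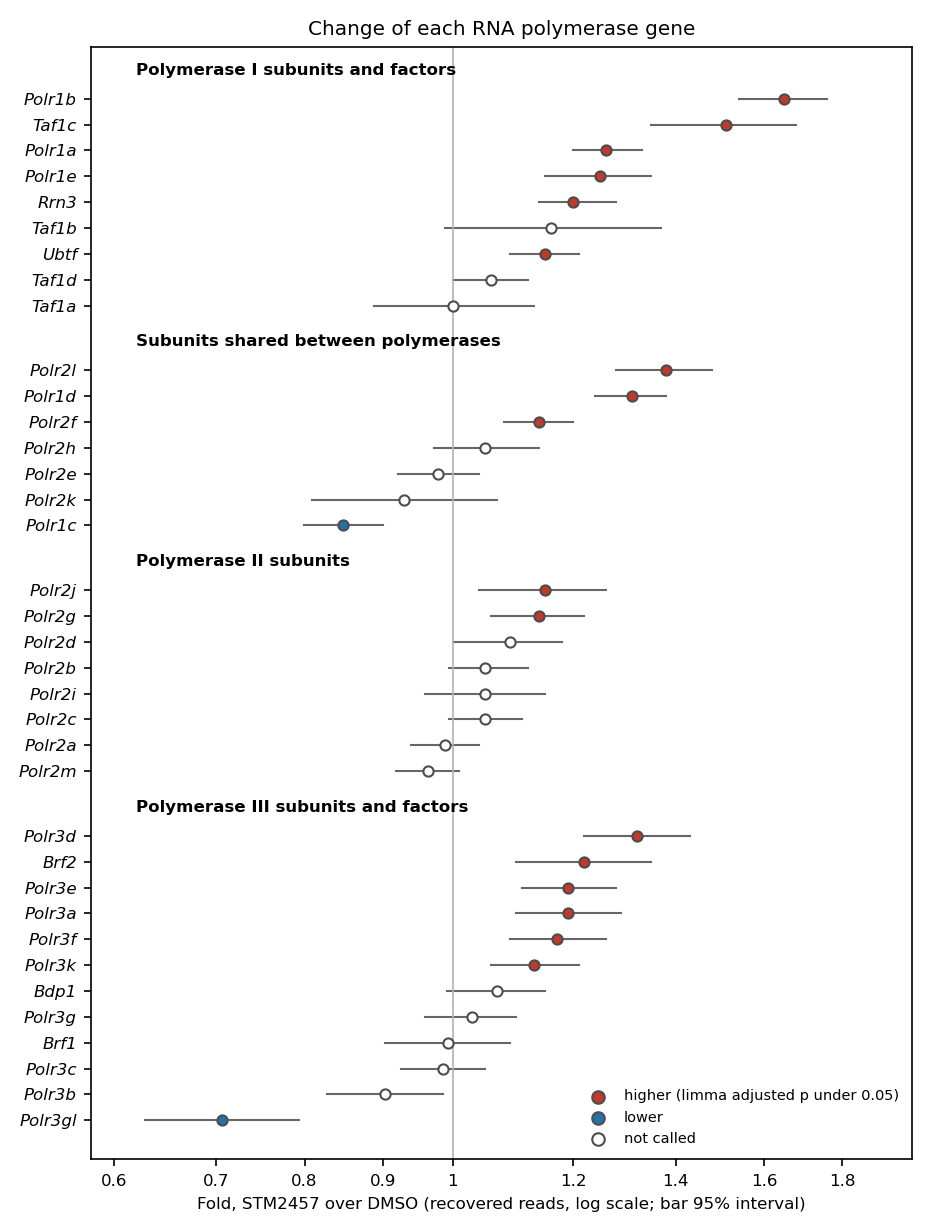
Fold of 36 members, STM2457 over DMSO, in the recovered reads (horizontal axis, log scale) with its 95% interval, by polymerase from the top; red points were called higher, blue lower and white not called by limma (n = 3 libraries each). Polr1b at 1.65 is furthest to the right and Polr3gl at 0.706 furthest to the left.

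Polymerase III subunits rose in 6 of 10 cases and fell in 1. Polr3a, the largest catalytic subunit, measured 722.1, 748.4 and 682.7 normalised reads after STM2457 against 617, 564.9 and 623.8 in DMSO (1.19-fold, 1.10 to 1.29, limma adjusted p = 5.7e-04). The second largest, Polr3b, measured 473.8, 451.2 and 468.7 after STM2457 and 477.7, 550 and 518.3 in DMSO (0.903, 0.828 to 0.985, limma adjusted p = 0.051). Polr3b was thus lower in all 3 STM2457 libraries but did not pass the threshold. It was called lower with upper-quartile centring (0.0056), the stricter filter (0.047), without trend and robust priors (0.047) and without DMSO replicate 1 (0.012), and had an adjusted p = 0.21 by limma without DMSO replicate 2.

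Polr3d and Polr3e encode the pair of subunits that act in promoter opening and termination. Polr3d measured 609.9, 588.3 and 570.7 normalised reads after STM2457 and 432.7, 452.7 and 456.1 in DMSO (1.32-fold, 1.22 to 1.43, limma adjusted p = 3.6e-06), the largest rise within polymerase III. Polr3e measured 1137, 1175 and 1068 after STM2457 against 885.4, 1017 and 937.2 in DMSO (1.19-fold, limma adjusted p = 2.8e-04). Both partners were higher in all 3 STM2457 libraries. Polr3k, which takes part in RNA cleavage and termination, rose 1.13-fold (limma adjusted p = 0.0032), and its call was lost with upper-quartile centring (0.06).

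The products of Polr3c, Polr3f and either Polr3g or Polr3gl form a subcomplex that recruits polymerase III to its initiation factors. Polr3f measured 885, 814.9 and 787.7 normalised reads after STM2457 against 716.1, 697.9 and 711.2 in DMSO (1.17-fold, limma adjusted p = 9.5e-04). Polr3c measured 1251 ± 65.1 after STM2457 and 1268 ± 40.3 in DMSO (SD, n = 3 each; limma adjusted p = 0.73). Polr3g and Polr3gl are paralogous genes whose products replace each other in the enzyme. Polr3g is known for its high level in pluripotent and tumour cells, and Polr3gl is the broadly expressed form. Polr3g measured 901.9, 873.6 and 838.3 normalised reads after STM2457 and 859.3, 845.8 and 840.8 in DMSO (1.03-fold, 0.960 to 1.10, limma adjusted p = 0.54), and the groups overlapped. Polr3gl measured 262.2, 253.4 and 320.1 after STM2457 against 358.6, 412 and 409.9 in DMSO, falling to 0.706 of DMSO (0.629 to 0.793, limma adjusted p = 2.5e-05). This was the largest change downwards among the 37 members, and it held its call in all 13 alternatives. In GENCODE M21 (GRCm38), Polr3gl is at chr3:96577872-96594181 and Polr3c, which was not called, at chr3:96711490-96727628, with 117308 bases between them, while Polr3g is at chr13:81673843-81711013, all 3 on the minus strand.

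The ratio of Polr3g to Polr3gl in normalised reads was 3.44, 3.45 and 2.62 in STM2457 replicates 1 to 3 and 2.40, 2.05 and 2.05 in DMSO replicates 1 to 3. The lowest STM2457 library was above the highest DMSO library. On the log2 scale the ratio averaged 1.65 ± 0.23 after STM2457 and 1.11 ± 0.13 in DMSO (SD, n = 3 each), a difference of 0.54 (two-sided exact permutation p = 0.10, the smallest that 3 against 3 libraries allow). Per length of merged exons, in RPKM, the ratio was 1.29 ± 0.19 after STM2457 and 0.879 ± 0.081 in DMSO (SD, n = 3 each). Those lengths are 3936 bases for Polr3g and 1597 for Polr3gl, while the longest annotated transcripts are 3054 and 1427 bases. Whether the DMSO ratio lies above or below 1 depends on the length used.

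**Figure D3:**
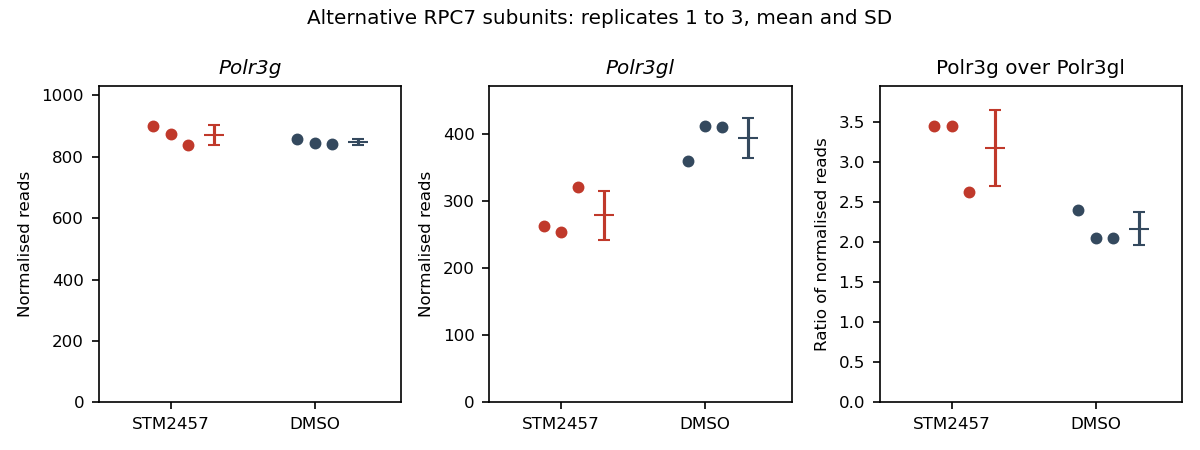
Normalised reads of Polr3g and of Polr3gl and the ratio of the 2 genes (vertical axes from 0) in STM2457 and DMSO replicates 1 to 3, each with the group mean and SD. Polr3gl is lower in all 3 STM2457 libraries, Polr3g overlaps, and the ratio is 2.62 to 3.45 after STM2457 and 2.05 to 2.40 in DMSO.

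Of the 3 polymerase III factor genes, 1 was called. Brf2, the TFIIB-related factor used at promoters of the U6 type, measured 357.6, 398.5 and 369.6 normalised reads after STM2457 against 290.4, 317.7 and 314.4 in DMSO (1.22-fold, 1.10 to 1.35, limma adjusted p = 0.0016). Brf1, its counterpart at transfer RNA and 5S genes, measured 384 ± 14.3 after STM2457 and 386 ± 26.1 in DMSO (SD, n = 3 each; 0.993, 0.903 to 1.09, limma adjusted p = 0.91). Bdp1, the TFIIIB component that both types of promoter need, was at 1.07-fold (limma adjusted p = 0.15) and was called higher without DMSO replicate 1 (0.017). The alternative TFIIB-related factors thus differed in call, and the difference between them was not tested.

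Levels per length place these changes on a common scale. RPKM, the reads scaled to library size and to the length of the merged exons, ran in DMSO from 2.14 for Taf1b to 97.8 for Polr2m, with a median of 15.2 for the members, against 6.41 for the 12397 tested genes with a length. Among the members, polymerase II and shared subunits held the upper part of the order, and the 10 highest in DMSO were all from these groups. Znrd1, a polymerase I subunit that is not a member, stood at 51.6 RPKM in DMSO, between Polr2f at 52.4 and Polr2g at 48.8. Polr2a stood at 46.9 ± 1.57 RPKM after STM2457 and 47.4 ± 1.62 in DMSO, Polr1a at 18.2 ± 0.422 and 14.4 ± 0.477, and Polr3a at 6.95 ± 0.320 and 5.83 ± 0.312 in STM2457 and DMSO (SD, n = 3 each). The second subunits followed the same order in DMSO, with Polr2b at 28.1 RPKM, Polr1b at 12.3 and Polr3b at 5.53. After STM2457 Polr1b was at 20.2 RPKM and above Polr1a, whereas in DMSO it was below Polr1a. Summed over members, the RPKM of the polymerase I-specific subunits after STM2457 was 139.4% of DMSO (117.1% with the 3 older-symbol subunits, of which Znrd1 has the highest RPKM). That of the polymerase I factors was 116.1%, that of the polymerase II-specific subunits 105% and that of the polymerase III-specific subunits 104.9%. It was 112.9% for subunits shared by all, 111.1% for those shared by I and III and 111.3% for the polymerase III factors. Summed in normalised reads instead, the polymerase II-specific subunits were at 102.2% of DMSO and the polymerase III-specific subunits at 108.2%.

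**Figure D4:**
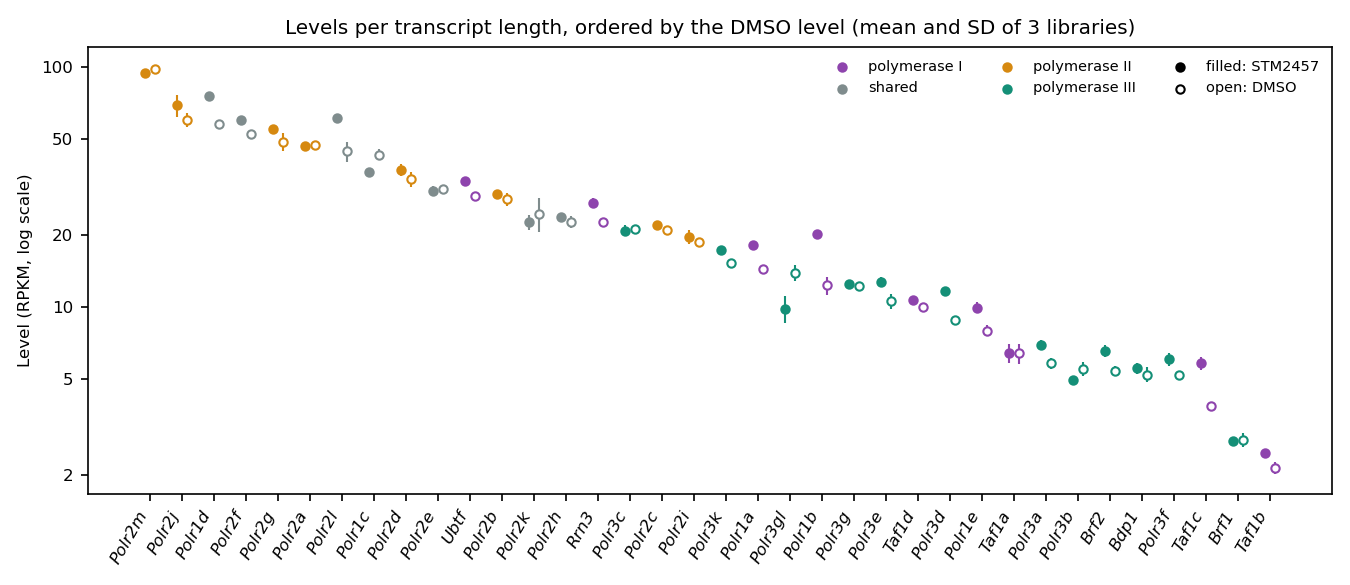
Level of 36 members in RPKM (vertical axis, log scale; mean and SD of 3 libraries), ordered by the DMSO level, with STM2457 filled and at the left of each pair and DMSO open, coloured by polymerase. Levels in DMSO span 2.14 to 97.8 RPKM, with polymerase II and shared subunits at the upper end.

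Sequence features that the choice of members did not use showed no simple division. The members lie on 19 chromosomes. GGACT, the most common core of m6A sites, occurred at a median of 1.04 per kilobase in the longest annotated transcript of the 18 members that were higher, 1.04 in the 17 not called and 1.87 in the 2 that were lower, against 1.01 over 12419 tested genes. The 2 lower genes lay far apart, Polr1c at 3.04 per kilobase and Polr3gl at 0.70. The count in a transcript says nothing of whether a site is methylated. Exons of 14 members overlap a gene on the other strand, among them Polr1a, Polr2j, Polr3gl, Taf1c and Brf2, and whether counting used strand is not stated in the sources, so part of those reads may belong to the other gene. For Polr3gl the overlap is 3.6% of the exon bases, with a gene at 12.2 reads per library on average. For Brf2 it is 2.3%, with Adgra2 at 3473 reads on average against 342.8 for Brf2. For Polr2j it is 15.9%, with Lrwd1 at 1035 reads against 1275 for Polr2j. For Taf1c it is 16.7%, with Dnaaf1, for which no reads were recovered. For Polr2i, which was not called, it is 26.8%, with Tbcb at 761.7 reads against 411.8 for Polr2i. What the overlaps add to these counts was not tested. A copy with at least 90% identity over 200 bases elsewhere was found for 8 members, including Polr1d, Polr2l and Polr3a, and the copies that are annotated pseudogenes averaged at most 8.33 reads, while Zfp11, which shares a stretch with Polr2c, averaged 93.3.

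Lists of genes that work with the polymerases, which are not members, were read from the same fit. Their counts stand beside 30.7% higher and 25.7% lower over all tested genes, and no test of the lists was made. Of 11 partners of ribosomal DNA transcription, 8 were higher and 2 lower, among them Nolc1 (1.42-fold, limma adjusted p = 8.7e-11) and Ncl (1.36-fold, 1.7e-10), which encode abundant nucleolar proteins, and the helicase gene Ddx21 (1.36-fold, 1.2e-09), while the nucleolar chaperone gene Npm1 fell to 0.800 (4.1e-08). Of 24 genes of polymerase II pausing and elongation, 13 were higher and 4 lower, but with upper-quartile centring 8 were higher and 6 lower. Hexim1, the inhibitor of the elongation kinase P-TEFb, rose to 1339 ± 38.8 normalised reads after STM2457 against 806 ± 83.9 in DMSO (SD, n = 3 each; 1.67-fold, limma adjusted p = 5.1e-10). Mepce, which caps and stabilises the 7SK RNA that holds that inhibitor, rose 1.44-fold (limma adjusted p = 1.2e-09), Paf1, of an elongation complex that travels with the enzyme, rose 1.39-fold (4.7e-09) and Ccnt2, a cyclin of P-TEFb, fell to 0.734 (1.2e-08). Folds in this list ran from 0.734 to 1.67, against 0.963 to 1.15 for the polymerase II members.

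Of 18 polymerase II initiation factor genes, 9 were higher and 4 lower. The genes of the TFIIE pair went opposite ways, Gtf2e1 rising 1.41-fold (limma adjusted p = 4.9e-08) and Gtf2e2 falling to 0.603 (4.0e-12), and Gtf2b, which encodes TFIIB (1.32-fold, 2.2e-06), and Gtf2h1, a TFIIH subunit (1.26-fold, 3.4e-07), rose. With upper-quartile centring the balance of the TFIID genes turned, to 3 higher and 5 lower, against 5 higher and 4 lower of 13 tested as deposited, with Taf5 at 1.24-fold (limma adjusted p = 4.4e-04), Taf3 at 1.19-fold (2.4e-04), Taf8 at 0.798 (4.4e-06) and Taf15, a TFIID-associated protein, at 0.760 (9.1e-08). Of 19 genes for assembly and for enzymes of the carboxy-terminal domain 9 were higher and 4 lower (6 and 6 with upper-quartile centring), with the domain phosphatase gene Ctdp1 at 1.33-fold (limma adjusted p = 1.6e-07), the kinase genes Cdk12 and Cdk13 at 1.28-fold (6.9e-07) and 1.21-fold (2.5e-06), and the assembly chaperone gene Ruvbl2 at 0.813 (2.2e-07). Of 14 genes of Integrator, a complex that cleaves nascent polymerase II transcripts, 7 were higher and 2 lower (6 and 4 with upper-quartile centring), with Ints5 at 1.47-fold (limma adjusted p = 3.7e-10), Ints3 at 1.35-fold (3.5e-08), Ints12 at 1.29-fold (7.5e-05) and Ints13 at 1.25-fold (1.1e-06).

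Of 16 genes for polymerase III initiation, the snRNA activating complex and the repressor Maf1, 5 were higher and 3 lower. The share that was higher is near the 30.7% of all tested genes. Maf1, which holds polymerase III back when growth signals fall, itself fell to 0.868 (limma adjusted p = 3.3e-04), and Snapc2, of the snRNA activating complex (1.31-fold, 1.4e-07), and the TFIIIC genes Gtf3c6 (1.26-fold, 4.6e-05) and Gtf3c4 (1.18-fold, 2.8e-04) rose. Of 7 genes for mitochondrial transcription 4 were higher and 2 lower, but 0 were higher with upper-quartile centring, 2 with the replicate block, 1 without STM2457 replicate 3 and 2 without DMSO replicate 3. The mitochondrial polymerase gene Polrmt was at 1.12-fold (limma adjusted p = 0.0091, lost with upper-quartile centring at 0.13), Mterf3 at 1.13-fold (0.0085, lost there at 0.12), Tfam at 0.907 (0.015, lost without STM2457 replicate 2 at 0.063) and Tfb1m at 0.726 (7.3e-05).

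**Figure D5:**
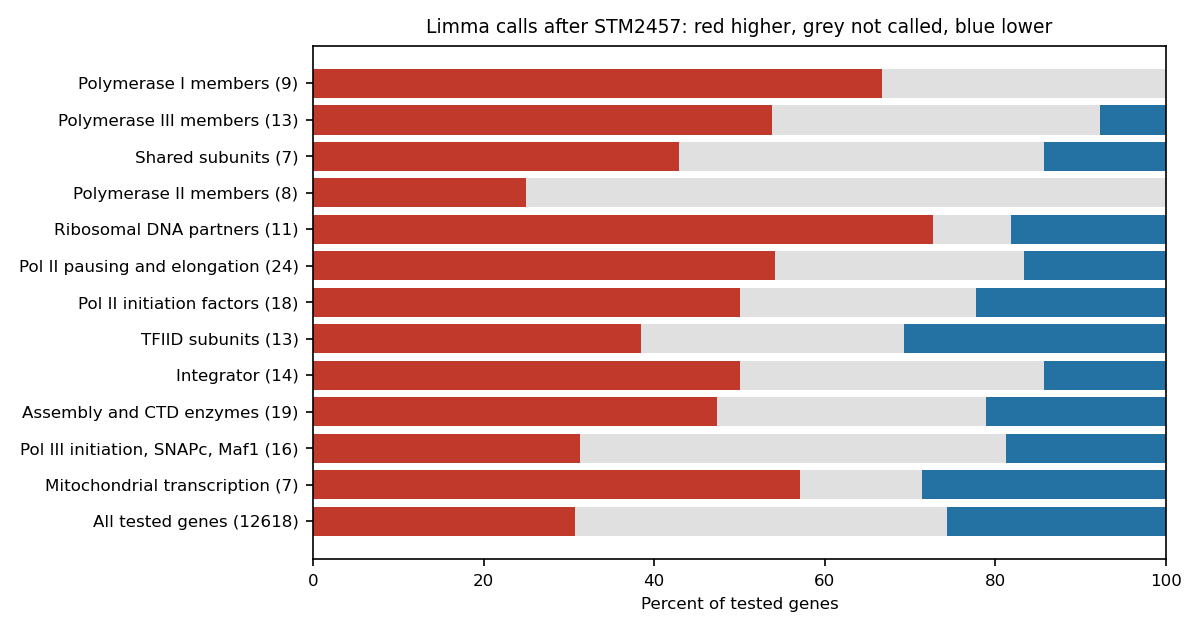
Percentage of tested genes called higher (red), not called (grey) and called lower (blue) by limma after STM2457 against DMSO, for the members by polymerase, the lists of partner genes and all 12618 tested genes, with the number tested in brackets. Polymerase I members were higher in 66.7% of cases and polymerase II members in 25%, against 30.7% of all tested genes. The 3 polymerase I subunits under older symbols, of which 1 was higher, are not counted among the members.

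The libraries as a whole set the frame for these values. Of the 37 members 17, and of the 12618 tested genes 6215, were higher in DMSO replicate 2 than in the mean of the other DMSO libraries. Without it 6 polymerase I members were still higher. Markers fixed for the cell type gave summed levels of 74256 to 75790 normalised reads after STM2457 and 92519 to 94298 in DMSO for the mesenchymal list (Vim and Fn1 lower, Cdh2 higher and S100a4 not called by limma), and only 6 to 17 and 17 to 19 for the epithelial list, where Epcam and Cdh1 were listed at 0. The leukocyte list summed to 12 to 12 and 4 to 11 normalised reads, with Cd3e, Itgam and Adgre1 listed at 0, the endothelial list to 4 to 9 and 5 to 5, and the alveolar list to 0 to 2 and 1 to 3, each in STM2457 and DMSO. The fibroblast list, all 4 genes of which had at least 10 reads, summed to 290 to 346 normalised reads after STM2457 and 214 to 266 in DMSO. Its genes went both ways, Pdgfrb averaging 166 ± 21.2 and 65.0 ± 5.70 normalised reads (higher, limma adjusted p = 2.0e-09) and Lum 9.27 ± 5.48 and 29.3 ± 10.0 (lower, limma adjusted p = 4.2e-04) in STM2457 and DMSO (SD, n = 3 each), while Pdgfra and Dcn were not called. Their part in the results was not tested. In bulk RNA, fewer cells of a kind and less RNA per cell cannot be told apart.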

How the data were processed

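RNA sequencing of LLC cells compared 3 STM2457 libraries with 3 DMSO libraries, grouped by their labels. The deposited table holds log2 values made by the authors, 1 row per gene symbol. The submitters' processing notes name GRCm38, HISAT2 2.2.1, FastQC 0.11.9, DESeq2, Subread and featureCounts 2.0.1. No source states the transform, annotation or strand setting. The values behave like a regularised log2, which shrinks differences towards 0 and keeps 59.9% of them at the highest counts.

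The transform's equations were inverted to recover reads, using values estimated from the table itself (penalty 60.24, size factors 0.995 to 1.01, and a dispersion of 0.0111 plus 1.896 divided by the mean). Of recovered values, 95.81% were whole to within 0.05 reads below a mean of 500, 88.81% from 500 to 2000 and 72.17% above. For the members 205 of 222 values were whole, the furthest being 0.238 reads away, and all were rounded. A count of 0 allows up to 3 reads, or 0.167 to 0.170 CPM, for counting error only. The inversion was tested on data simulated with the same transform, which cannot show that the deposited values were made by it.

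As the design set for log2 values, limma 3.58.1 in R 4.3.3 (mean-variance trend, robust priors, statmod 1.5.0) was fitted to the deposited values with no pseudocount. It covered the 12618 genes with a mean of at least 3.32 (log2 of 10 reads), with Benjamini-Hochberg adjustment across them. Folds, their 95% intervals and their errors come from limma-voom on the recovered reads, and RPKM uses merged exon lengths of GENCODE M21. Near copies were searched with BLAST 2.17.0. Alternatives were upper-quartile centring, no filter and a stricter filter (50 reads), no trend, limma-voom with either scaling, a replicate block and leaving out each library. Replicate libraries differed by more than sampling noise (chi-square per degree of freedom 1.61 to 5.36), so none was counted as a duplicate.

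The members and lists were chosen with earlier results of these data known, and the motifs after the members' values were seen. Values in every library are given for the catalytic subunits, Polr3g, Polr3gl and up to 4 further called members per enzyme with the largest differences, and for a few uncalled members (Taf1b, Polr2k and Polr2m) chosen after their values were seen. Of the 37 members 1 is counted but not reported by name here. From each partner list up to 4 called genes of smallest adjusted p are named.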

Additional observations from a re-analysis of the deposited data

How the results depend on the processing

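Of the 20 called members, 16 kept their call and direction in all 13 alternatives, 14 of them higher and 2 lower (Polr1c and Polr3gl), and 0 members reversed a call. Calls were lost in some alternatives by 4 members, among them Polr2g, Polr2j and Polr3k, and those of 8 uncalled members were gained in some. The members higher numbered 14 to 20 over all alternatives and the 6 higher of polymerase I 6 to 7. The members lower, 2 as reported, were 4 with upper-quartile centring and 5 with limma-voom and upper-quartile scaling. With both scalings the polymerase II members higher were 0, and those lower were 1 with the centring and 2 with limma-voom; polymerase III members lower were 2 with both, with the stricter filter and without trend and robust priors. Those scalings moved the median log2 difference of all tested genes to -0.0339 and -0.0583. The causes of the other changes were not tested. Leaving out 1 library in turn gave 16 to 20 members higher and 2 to 3 lower, 1 to 2 shared subunits lower, 1 to 3 polymerase II members higher, 1 to 2 polymerase III members lower, and a Polr3g to Polr3gl log2 ratio difference of 0.47 to 0.67; from the deposited values that difference was 0.25. Over all tested genes it gave 3402 to 3797 higher and 2704 to 3152 lower, against 3868 and 3240. With upper-quartile centring 2819 were higher and 4814 lower. The labels do not state whether same-numbered libraries were paired. Correlations of their deviations ran from 0.011 to 0.050, and 4 of 6 libraries correlated best with their own number. The replicate block gave 18 members higher and 2 lower, and 3864 and 3226 genes. Of 234 recomputed counts of the partner lists, 218 stayed within 1.5 times. With limma-voom and upper-quartile scaling the genes higher and lower were 7 and 6 for pausing and elongation, 3 and 5 for TFIID, 6 and 4 for Integrator, 0 and 2 for mitochondrial transcription and 3 and 3 for polymerase III initiation; without STM2457 replicate 3, and with no filter, 2 assembly genes were lower, and without STM2457 replicate 2, 1 mitochondrial gene was. Depth limits Taf1b most, at about 100 reads per library.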
